A study of Mus musculus with 15 samples.

Results

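The podocyte is the epithelial cell that wraps the glomerular capillaries, and the slit diaphragm is the junction between its foot processes. Nephrin and its relatives of the Kirrel family span that slit, adaptor and actin-binding proteins anchor them inside the foot process, and a charged coat keeps neighbouring processes apart. Loss of many of these proteins lets protein leak into the urine. The 8 genes examined were given by name: Nphs1, Podxl, Wt1, Synpo, Ptpro, Cd2ap, Plce1 and Kirrel. Each was measured by 1 probe set annotated to it alone, so that all 8 were found among the 22180 genes with such a probe set, and none was lost to a filter on low values. They share a known role in the podocyte, and they were chosen with earlier results of these data known.

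Kidney RNA came from 8 Grhl1-/- mice (knockout replicates 8 to 15) and 7 Grhl1+/+ mice (wild-type replicates 1 to 7), all aged about 6 months. Grhl1 is a grainyhead-like transcription factor of epithelia, and the design asks which kidney transcripts differ without it. No source used here states which part of the gene was removed, or the sex and strain of the mice. The values are log2 summaries per probe set, in which 1 unit is a doubling of signal. Group values below are means ± SD over 8 knockout and 7 wild-type kidneys, and differences are knockout minus wild type with the standard error (SE) of the fit.

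Because this is RNA of the whole kidney, fewer podocytes and less RNA per podocyte cannot be told apart. Podocytes are also not the only source of every transcript: Cd2ap is expressed in many cell types, Podxl also in endothelium, and Wt1 also in mesothelium. Grhl1 itself lay between 4.40 and 4.92 in knockout kidneys and between 4.96 and 5.25 in wild-type kidneys. The difference was -0.38 (SE 0.07, adjusted p = 0.113 in limma, exact permutation p = 0.000311). All of these Grhl1 values lie below the array medians of 5.51 to 5.59. Whether this probe set lies in the deleted part is not stated, so it does not by itself check the labels. A further split crossed the genotypes. Y-linked transcripts were low in knockout replicates 13, 14 and 15 and wild-type replicates 6 and 7 (mean of 3 genes from 3.96 to 4.26), where Xist read 11.4 to 11.6, and present in the other 10 kidneys (8.37 to 8.68), where Xist read 3.60 to 4.29. Liver transcripts were high in 3 kidneys, knockout replicate 10 and wild-type replicates 3 and 7. Adrenal cortex transcripts were high in 6, of which 4 were knockouts (replicates 10 to 13) and 2 wild type (replicates 2 and 3). The highest list means fell in kidneys low in Y-linked transcripts, 11.45 for liver in wild-type replicate 7 and 9.28 for adrenal cortex in knockout replicate 13.

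Upstream sequence was at hand for 5 of the 8 genes, from RefSeq on GRCm38.p6. The 250 bases before the annotated start are shown for Nphs1, Ptpro and Plce1, since these had the largest differences between the 5 kidneys low in Y-linked transcripts and the other 10. Capitals mark matches to CANNTG, the E-box to which basic helix-loop-helix factors such as the podocyte factor Tcf21 bind.
Nphs1, chr7:30459808-30460057, plus strand: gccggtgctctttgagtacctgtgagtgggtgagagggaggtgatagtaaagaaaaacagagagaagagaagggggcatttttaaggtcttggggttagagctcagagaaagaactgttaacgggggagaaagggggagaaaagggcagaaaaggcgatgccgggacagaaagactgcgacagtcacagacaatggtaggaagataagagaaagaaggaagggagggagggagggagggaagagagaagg
Ptpro, chr6:137252049-137252298, plus strand: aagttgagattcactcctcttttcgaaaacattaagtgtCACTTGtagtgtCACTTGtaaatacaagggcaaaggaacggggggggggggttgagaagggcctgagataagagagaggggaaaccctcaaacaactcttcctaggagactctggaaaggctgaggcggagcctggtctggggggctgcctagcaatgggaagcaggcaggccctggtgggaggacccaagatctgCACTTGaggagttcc
Plce1, chr19:38523947-38524196, plus strand: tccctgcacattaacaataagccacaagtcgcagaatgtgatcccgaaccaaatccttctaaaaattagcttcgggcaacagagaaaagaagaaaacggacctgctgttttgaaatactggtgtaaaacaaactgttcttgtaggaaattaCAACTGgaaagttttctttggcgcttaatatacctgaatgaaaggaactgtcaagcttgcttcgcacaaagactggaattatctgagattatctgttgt

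On either strand, the E-box occurred 3 times in the Ptpro window, 1 time in that of Plce1 and 0 times in that of Nphs1, and 66.2% of all 32851 upstream windows of this length hold at least 1. The grainyhead motif AACNGGTT was in none of the 5 windows and in 1.79% of all windows. The letters GCGTGGG, the core of a motif for the zinc finger factor encoded by Wt1, were also in none of the 5, against 4.3% of all. These counts describe the letters in these windows only. The windows also differed in base composition, with 38.8% G and C in Plce1, 50.8% in Nphs1 and 53.6% in Ptpro.

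None of the 8 podocyte genes passed the test between knockout and wild-type kidneys. In limma over all 23521 probe sets, 0 of 8 passed at an adjusted p under 0.05, where 0.0128% of all probe sets did, and 0 of 8 had an unadjusted p under 0.05, where 5.55% of all did. The exact rank-sum test likewise gave 0 of 8 at an unadjusted p under 0.05, against 4.9% of all probe sets. For all 8 genes the ranges of the genotypes overlapped; 0.123% of all probe sets had ranges that did not. The 8 differences ran from -0.06 to 0.08 with a median of 0.01, and the median over all probe sets was also 0.01.

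Nphs1 encodes nephrin, the slit protein whose loss causes congenital nephrotic syndrome in humans. It ranged from 7.70 to 8.52 in knockout kidneys (median 7.84) and from 7.62 to 8.45 in wild-type kidneys (median 7.70). The means were 7.97 ± 0.28 in knockout and 7.89 ± 0.31 in wild-type kidneys, a difference of 0.08 (SE 0.14, adjusted p = 0.997 in limma, exact permutation p = 0.588). The 95% interval of the fold, 0.860 to 1.31, was the one that reached highest among the 8 genes. Kirrel encodes Neph1, which pairs with nephrin across the slit. It ranged from 7.21 to 7.78 in knockout kidneys (median 7.49) and from 7.32 to 7.78 in wild-type kidneys (median 7.43), and the means differed by 0.01 (SE 0.09, adjusted p = 0.999 in limma).

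Inside the foot process, Cd2ap encodes an adaptor that ties the slit proteins to actin. It varied least among the 8, from 10.89 to 11.03 in knockout kidneys (median 10.94) and from 10.87 to 11.13 in wild-type kidneys (median 10.90). The difference was 0.01 (SE 0.04, adjusted p = 0.997 in limma), and its interval of 0.945 to 1.07-fold was the narrowest. Synpo encodes synaptopodin, an actin-associated protein of foot processes and dendritic spines. It lay between 6.98 and 7.46 in knockout kidneys (median 7.22) and between 7.01 and 7.56 in wild-type kidneys (median 7.15), a difference of 0.01 (SE 0.09, adjusted p = 0.998 in limma).

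The genes of surface proteins did not pass either. Podxl encodes podocalyxin, the sialylated protein that charges the podocyte coat, and ranged from 9.99 to 10.49 in knockout kidneys (median 10.20) and from 10.14 to 10.63 in wild-type kidneys (median 10.27). Its means were 10.24 ± 0.16 in knockout and 10.30 ± 0.18 in wild-type kidneys, a difference of -0.06 (SE 0.09, adjusted p = 0.997 in limma). Ptpro encodes a receptor tyrosine phosphatase of the podocyte apical membrane, also called GLEPP1. It ranged from 7.17 to 7.98 in knockout kidneys (median 7.39) and from 7.39 to 8.01 in wild-type kidneys (median 7.42), a difference of -0.02 (SE 0.14, adjusted p = 0.998 in limma) with an interval of 0.801 to 1.21-fold.

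Plce1 encodes a phospholipase C whose loss causes nephrotic syndrome in humans. Its range was 7.03 to 7.64 in knockout kidneys (median 7.21) and 7.03 to 7.78 in wild-type kidneys (median 7.23), and the difference was -0.06 (SE 0.12, adjusted p = 0.997 in limma). Wt1, the transcription factor that maintains the podocyte programme, ranged from 7.52 to 7.94 in knockout kidneys (median 7.79) and from 7.50 to 8.17 in wild-type kidneys (median 7.69), a difference of 0.02 (SE 0.10, adjusted p = 0.997 in limma). Over the 8 genes the 95% intervals of the fold reached from 0.801 to 1.31.

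**Figure D1:**
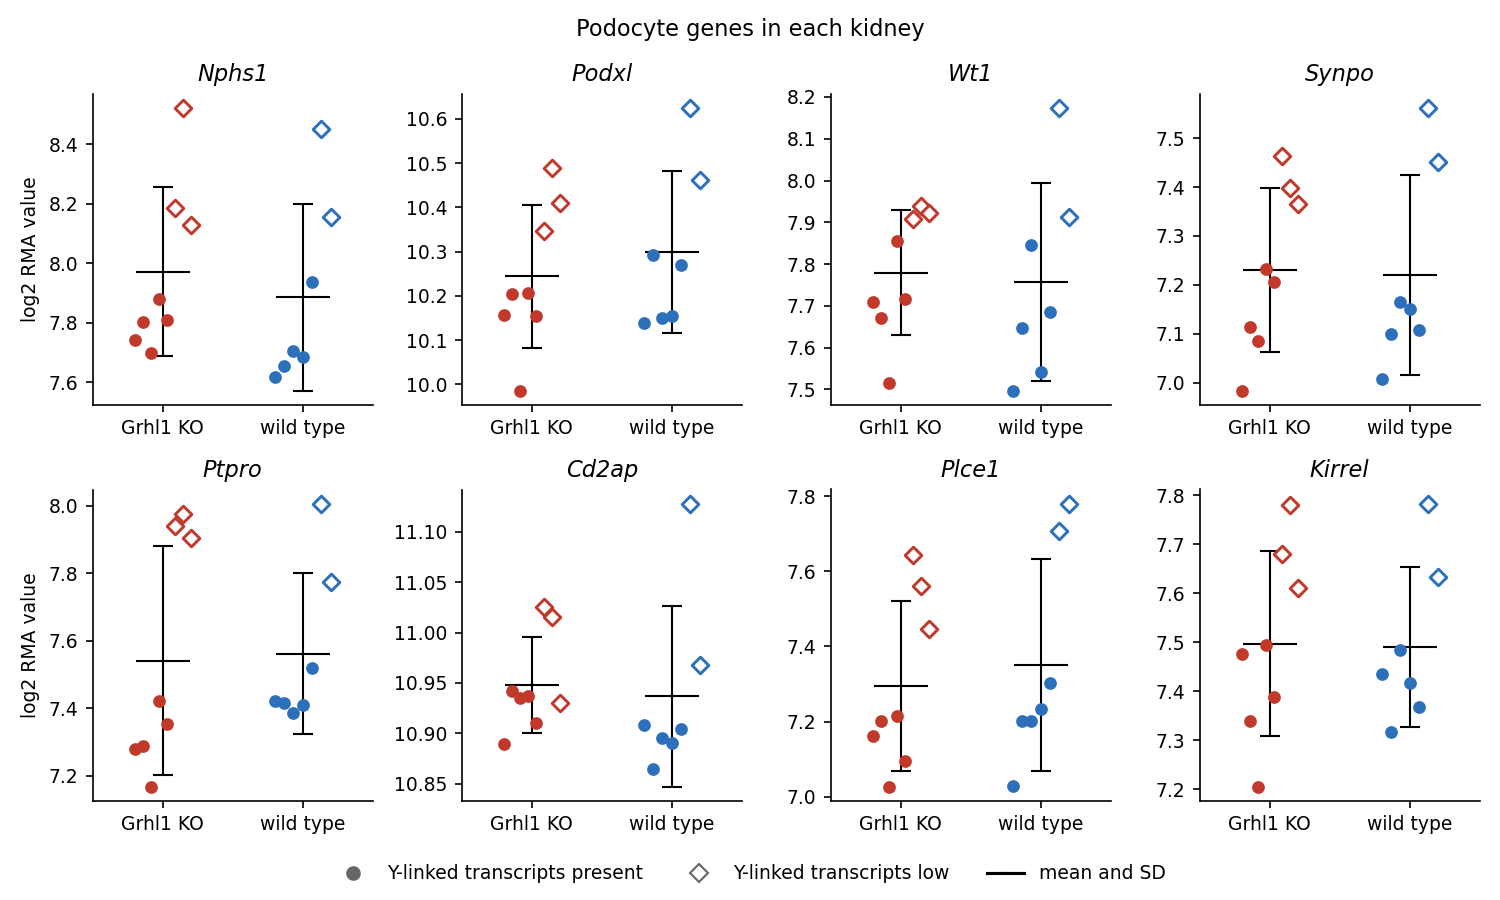
Log2 RMA value (vertical axis) of each of the 8 podocyte genes in 8 Grhl1 knockout kidneys (left of each panel) and 7 wild-type kidneys (right), 1 point per kidney, with black bars for the mean and SD. Open diamonds are the 5 kidneys low in Y-linked transcripts, which lie at the top of both genotypes in every panel except that of Cd2ap, where knockout replicate 15 (10.93) falls among the filled points.

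Within each genotype the 8 genes were higher on average in the kidneys low in Y-linked transcripts. In 7 of the 8 genes, each of the 5 kidneys low in Y-linked transcripts read higher than each of the other 10. Over all probe sets 6.82% were higher in this way and 4.69% lower. These 2 sets of kidneys were set apart by their own Y-linked RNA and not by the labels, so the values are given as a description without a test.

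Ptpro read 7.94, 7.98 and 7.90 in the 3 low kidneys of knockout mice and 8.01 and 7.77 in the 2 of wild-type mice. In the kidneys with Y-linked transcripts it read 7.28, 7.29, 7.17, 7.42 and 7.35 in knockout mice and 7.42, 7.41, 7.39, 7.41 and 7.52 in wild-type mice. The 5 averaged 7.92 ± 0.09 and the 10 averaged 7.37 ± 0.10, a difference of 0.55 or 1.47-fold, with a gap of 0.25 between the sets. The difference was 0.64 among knockout and 0.46 among wild-type kidneys.

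Nphs1 read 8.18, 8.52 and 8.13 in the 3 low kidneys of knockout mice and 8.45 and 8.16 in the 2 of wild-type mice. With Y-linked transcripts it read 7.74, 7.80, 7.70, 7.88 and 7.81 in knockout mice and 7.62, 7.66, 7.70, 7.69 and 7.94 in wild-type mice. The means were 8.29 ± 0.18 over the 5 and 7.75 ± 0.10 over the 10, a difference of 0.54 or 1.45-fold. A difference at least this large in the same direction was found in 2.05% of all probe sets, and one at least as large as that of Ptpro in 1.86%.

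Plce1 read 7.64, 7.56 and 7.45 in the low kidneys of knockout mice and 7.71 and 7.78 in those of wild-type mice, against 7.03 to 7.30 in the other 10, a difference of 0.46. Synpo differed by 0.33 (7.37 to 7.56 in the 5, 6.98 to 7.23 in the 10), Kirrel by 0.31 (7.61 to 7.78 in the 5, 7.21 to 7.49 in the 10) and Wt1 by 0.30 (7.91 to 8.17 in the 5, 7.50 to 7.86 in the 10). Podxl differed by 0.30, with 10.35 to 10.63 in the 5 and 9.99 to 10.29 in the 10. Cd2ap differed by 0.11 (10.93 to 11.13 in the 5, 10.87 to 10.94 in the 10), and its ranges overlapped. The size of the difference was similar in both genotypes for Kirrel (0.31 among knockout and 0.30 among wild-type kidneys) and less so for Cd2ap (0.07 and 0.16).

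With the presence of Y-linked transcripts as a factor, the standard errors of the genotype differences fell to between 0.03 and 0.07, against 0.04 to 0.14 without it. The genotype difference became -0.10 for Plce1 (SE 0.05), -0.08 for Podxl (SE 0.05), -0.07 for Ptpro (SE 0.05) and 0.04 for Nphs1 (SE 0.07), and lay between -0.02 and 0.0018 for the other 4. In this fit the smallest adjusted p among the 8 was 0.616 in limma, 0 of 8 had an unadjusted p under 0.05, where 8.75% of all probe sets did, and 0.0638% of all probe sets passed the adjusted threshold. The 95% intervals then reached from 0.867-fold to 1.14-fold over the 8 genes.

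**Figure D2:**
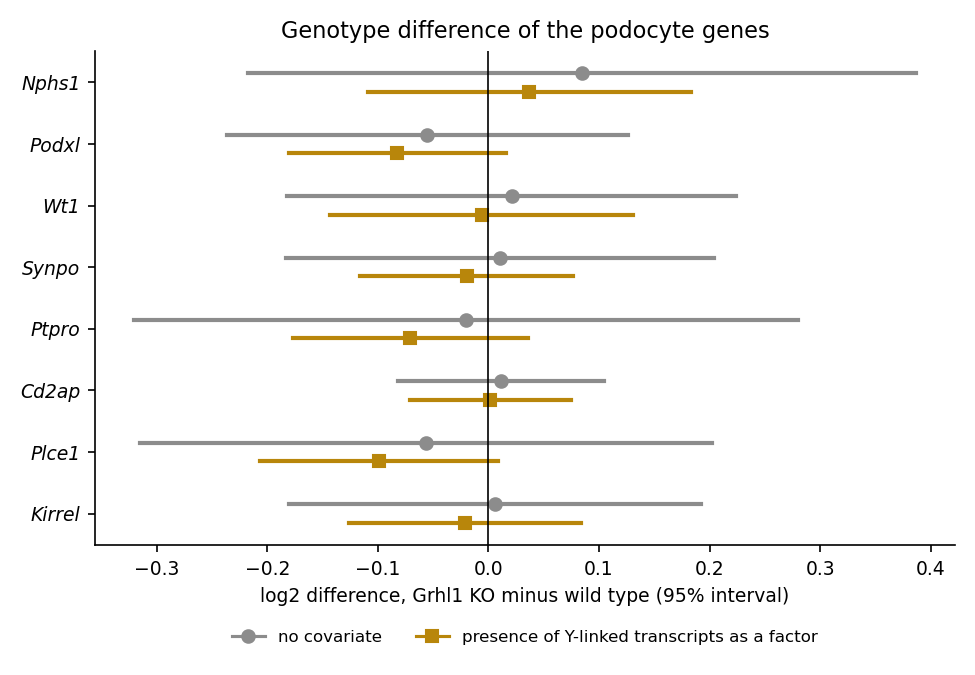
Log2 difference, knockout minus wild type (horizontal axis), of each podocyte gene with its 95% interval, fitted in limma on 8 knockout and 7 wild-type kidneys without a covariate (grey circles) and with the presence of Y-linked transcripts as a factor (gold squares). All 16 intervals include 0, and the gold ones are narrower.

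Within the 10 kidneys that hold Y-linked transcripts, 5 of each genotype, Ptpro was the 1 of 8 genes with an unadjusted p under 0.05, where 7.72% of all probe sets had one. It ranged from 7.17 to 7.42 in the knockout kidneys and from 7.39 to 7.52 in the wild-type kidneys, with a difference of -0.13. The exact permutation p was 0.0397 and the adjusted p 0.632 in limma, so the difference did not pass. Among the 5 kidneys low in these transcripts the difference of Ptpro was 0.05 (3 knockout against 2 wild type, where the smallest exact p is 0.1). The genotype differences of the 8 genes were not shown to depend on Y-linked transcripts: adjusted p for the interaction ranged from 0.751 to 0.997 in limma, with 0 of 8 at an unadjusted p under 0.05, where 7.04% of all probe sets had one.

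Co-variation of the 8 genes from kidney to kidney was examined next as a measure of how much cortex each sample held. The 15 kidneys fell into the 2 separate clusters just described. Correlations among the 8 genes and with lists of marker genes are therefore given here within the 10 kidneys with Y-linked transcripts only. The other 5 are too few. In these 10 kidneys Pearson's r over the 28 pairs of genes had a median of 0.320 and ran from -0.415 to 0.752, with a median Spearman's rho of 0.327. After Benjamini-Hochberg adjustment over the 28 pairs, 0 passed by permutation (smallest adjusted p = 0.247), and 2 had an unadjusted p under 0.05 by r.

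These were Podxl with Ptpro (r = 0.752, permutation p = 0.0176; rho = 0.491, permutation p = 0.154) and Podxl with Plce1 (r = 0.741, permutation p = 0.0104; rho = 0.612, permutation p = 0.0655). Without the 2 kidneys farthest from the median of Podxl, r was 0.492 for the first pair and 0.730 for the second. By rho, 2 other pairs had an unadjusted p under 0.05 and 0 passed after adjustment: Nphs1 with Wt1 (rho = 0.721, permutation p = 0.0233; r = 0.546, permutation p = 0.102) and Wt1 with Synpo (rho = 0.648, permutation p = 0.0498; r = 0.549, permutation p = 0.0997). The order of the pairs also depended on the genotype means. With these subtracted, the highest r over the same 10 kidneys were 0.770 for Nphs1 with Ptpro, against 0.286 without subtraction, and 0.744 for Nphs1 with Plce1, against 0.554.

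Knockout replicate 10 held both liver transcripts (list mean 9.33) and adrenal cortex transcripts (7.96), and it was the lowest knockout kidney in 6 of the 8 genes (Nphs1, Podxl, Wt1, Ptpro, Plce1 and Kirrel). Over the 9 kidneys without it, r was 0.454 for Podxl with Ptpro and 0.600 for Podxl with Plce1, and the median over the 28 pairs was 0.247. Podxl with Kirrel had an r of -0.631 without it and a positive one with it. Wild-type replicate 3 also held both liver transcripts (9.34) and adrenal cortex transcripts (8.10). Among the 5 wild-type kidneys with Y-linked transcripts it read highest in Wt1 (7.85), Synpo (7.17) and Kirrel (7.48). It read lowest of them in Ptpro (7.39) and in between for the other genes. Podxl with the liver list had an r of -0.629 over the 10 kidneys (permutation p = 0.104; rho = -0.273, permutation p = 0.451). Without the 2 kidneys farthest from the median of that list, knockout replicate 10 and wild-type replicate 3, r was 0.377. The part of liver or adrenal cortex RNA in these relations was not tested.

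For Nphs1 and Kirrel, whose proteins pair across the slit, no correlation was detectable over these 10 kidneys (r = 0.128, permutation p = 0.725; rho = 0.176, permutation p = 0.635). Cd2ap had the lowest correlations with the other 7 genes, with a median r of -0.182, while Wt1 and Plce1 each had a median of 0.496.

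**Figure D3:**
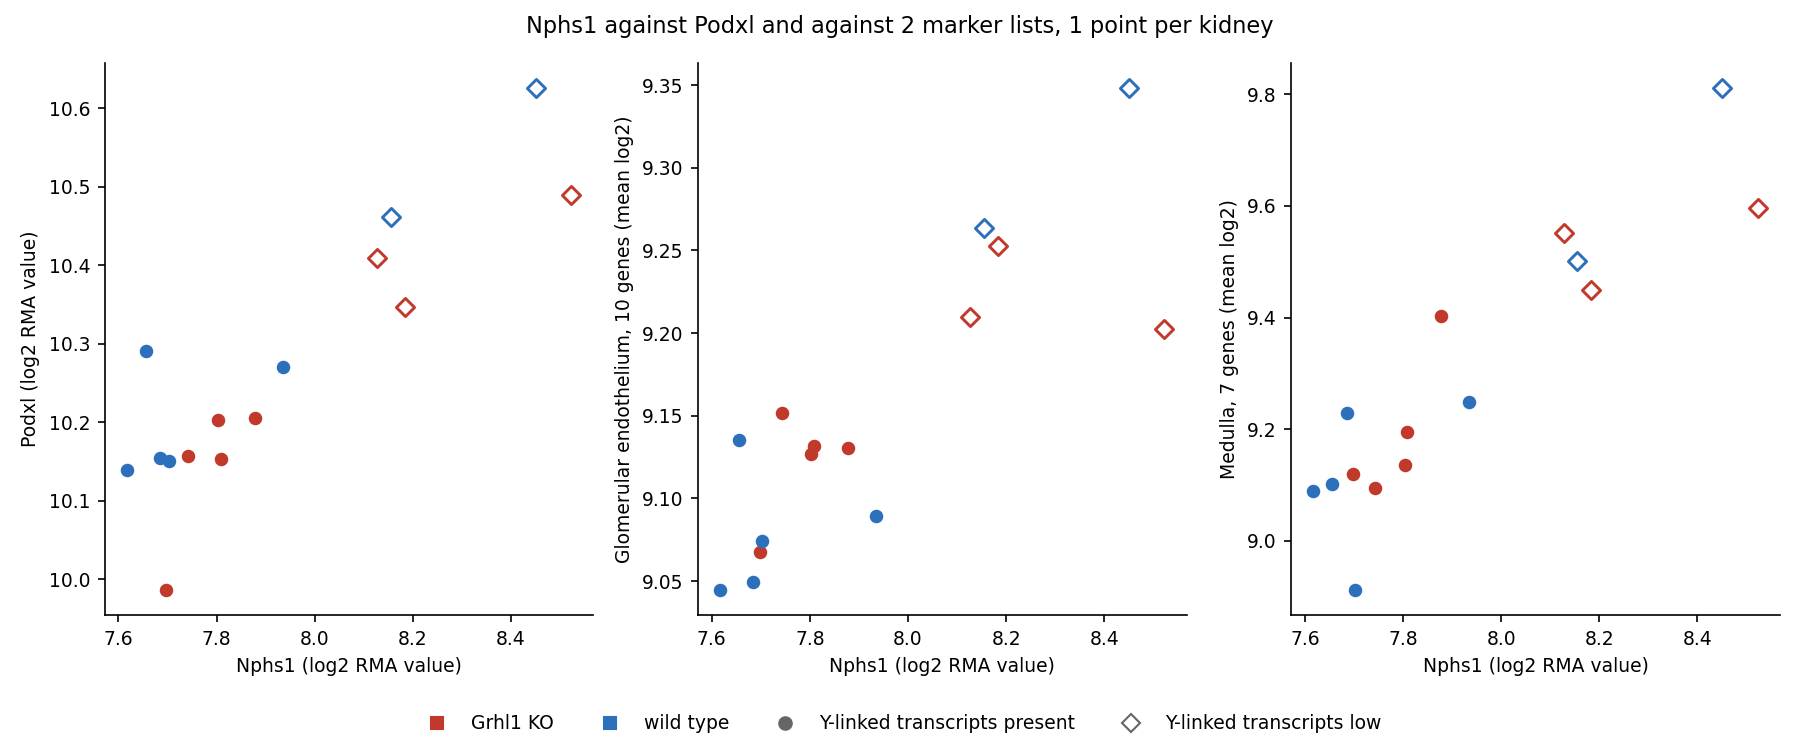
Nphs1 (horizontal axes, log2 RMA value) against Podxl, the mean of 10 glomerular endothelium genes and the mean of 7 medulla genes (vertical axes), 1 point per kidney, red for 8 knockout and blue for 7 wild-type kidneys. The 5 kidneys low in Y-linked transcripts (open diamonds) form a cluster at the upper right of each panel, apart from the other 10.

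Marker lists for other parts of the kidney were set beside the podocyte genes. Higher readings in the 5 kidneys low in Y-linked transcripts were not confined to cortical lists. The median difference over genes was 0.32 for the 8 podocyte genes, 0.36 for 4 mesangium genes, 0.17 for 10 glomerular endothelium genes, 0.18 for 12 cortical proximal tubule genes, 0.28 for 8 distal convoluted and connecting tubule genes, 0.29 for 7 genes of the thick ascending limb and 0.27 for 7 medulla genes. Over all probe sets the median was -0.0089. Over all probe sets 6.82% had ranges that did not overlap and were higher in the 5, and 4.69% were lower. Ranges were higher in the 5 without overlap for 3 of 4 mesangium genes (Pdgfrb, Itga8 and Des), 3 of 7 medulla genes (Slc14a2, Aqp4 and Slc4a11), 4 of 12 proximal tubule genes (Slc5a2, Slc5a12, Slc7a8 and Slc22a8), 3 of 8 distal convoluted and connecting tubule genes, 3 of 7 thick ascending limb genes and 2 of 10 endothelium genes (Emcn and Cdh5). In the proximal tubule list Slc22a6, an organic anion transporter, was lower in each of the 5, with a difference of -0.88. Whether these lists account for the readings of the podocyte genes was not tested.

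Within the 10 kidneys, 40 relations between the 8 genes and the means of 5 lists were computed, and 0 passed after adjustment over the 40 by permutation (smallest adjusted p = 0.230), with 3 at an unadjusted p under 0.05. The median r was 0.20 with the cortical proximal tubule, 0.36 with the distal convoluted and connecting tubule, 0.18 with glomerular endothelium, -0.13 with mesangium and 0.29 with the medulla. Nphs1 and Cd2ap gave the highest values, both with the proximal tubule mean, and the third was Nphs1 with the distal convoluted and connecting tubule mean (r = 0.664, permutation p = 0.038; rho = 0.745, permutation p = 0.0176). For Nphs1, r was 0.790 (permutation p = 0.00768) and rho 0.830 (permutation p = 0.00524), and for Cd2ap r was 0.769 (permutation p = 0.0115) and rho 0.758 (permutation p = 0.0146). Without the 2 kidneys farthest from the median of the list, these r were 0.650 and 0.787.

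**Figure D4:**
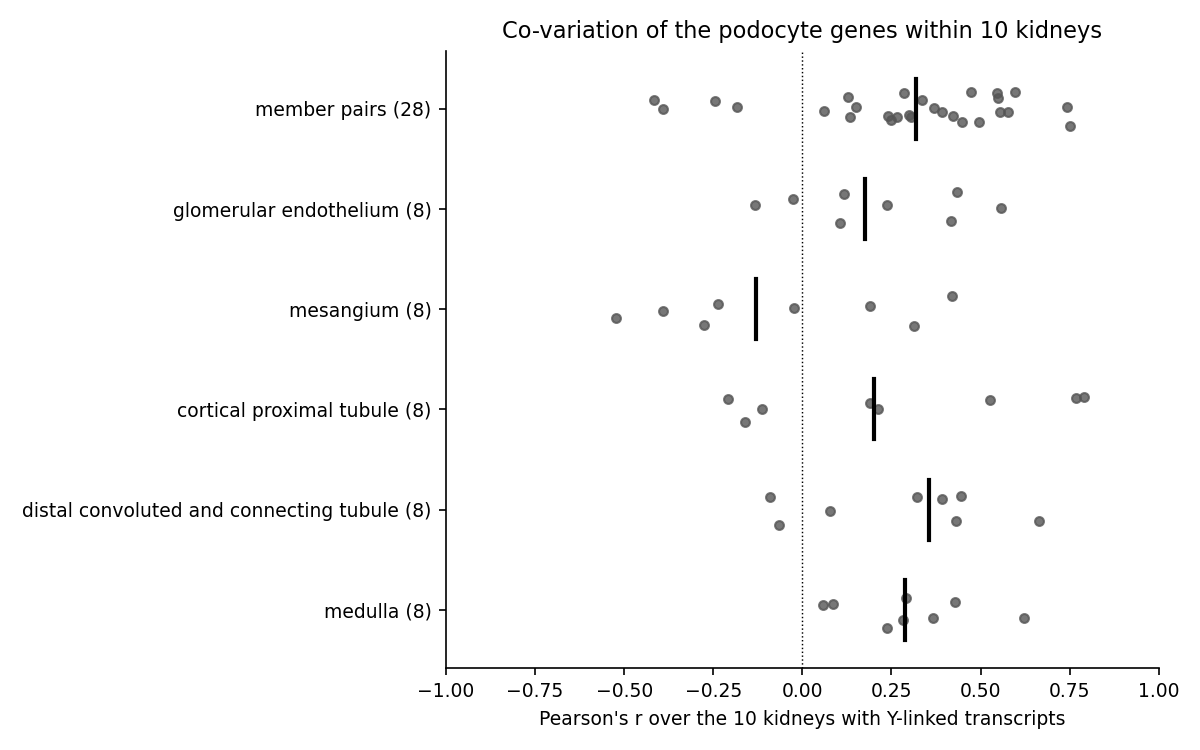
Pearson's r over the 10 kidneys with Y-linked transcripts (horizontal axis) for the 28 pairs of podocyte genes and for the 8 genes against the means of 5 marker lists, 1 point per relation, with a bar at the median. The pairs run from -0.415 to 0.752, and the medians of the lists lie between -0.13 and 0.36.

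The proximal tubule mean itself was 12.30 ± 0.06 in knockout kidneys and 12.23 ± 0.07 in wild-type kidneys. The genotype differences of its 12 genes were uneven, from -0.01 to 0.37 with a median of 0.03. With it as a covariate, all 8 genotype differences were negative, from -0.06 for Cd2ap to -0.31 for Ptpro, with Nphs1 at -0.23 (SE 0.10) and Plce1 at -0.30 (SE 0.10). The tubule mean was higher in knockout kidneys, and its r with the 8 genes over all 15 kidneys ran from 0.506 to 0.778. Adjusting for it therefore moves all 8 differences down together. In that fit 5 of 8 genes had an unadjusted p under 0.05, where 4.16% of all probe sets had one and were lower in knockout kidneys, and 0 of 8 passed the adjusted threshold (smallest adjusted p = 0.504 in limma). That fit spans both clusters of kidneys. With the presence of Y-linked transcripts added to it, the differences lay between -0.15 for Plce1 and -0.03 for Kirrel, and 2 of 8 had an unadjusted p under 0.05 (Plce1 and Ptpro), where 2.47% of all probe sets had one and were lower in knockout kidneys. None of the 8 passed (smallest adjusted p = 0.865 in limma). With that factor and no tubule mean, they were -0.10 to 0.04 with 0 of 8 at an unadjusted p under 0.05, as given above. Values of the 8 genes move together across kidneys in part, so the genes counted are not separate observations.

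Genes most like each podocyte gene were found over all 15 kidneys after subtraction of each genotype's mean, which leaves the split of the 5 kidneys in place. Nphs1 was closest to Slc35f1 (r = 0.989), Mansc1 (r = 0.975) and Them6 (r = 0.968), and Podxl to Hoxb8 (r = 0.975), Tmco6 (r = 0.964) and Sgpp2 (r = 0.963). Wt1 was closest to Itga3 (r = 0.950), which encodes the alpha chain of the podocyte's laminin receptor, then to Ten1 (r = 0.947) and the Notch ligand gene Jag1 (r = 0.945). For Ptpro these were Acot7 (r = 0.980), Slc3a2 (r = 0.979) and Lyplal1 (r = 0.978), and for Plce1 Cyp2d26 (r = 0.978), Rrm1 (r = 0.976) and the desmosomal cadherin gene Dsg2 (r = 0.975).

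Synpo was nearest to 2410002F23Rik (r = 0.975), Angpt2 (r = 0.972) and Flvcr2 (r = 0.971), Kirrel to Dsn1 (r = 0.963), Gpat3 (r = 0.960) and Dkk3 (r = 0.943), and Cd2ap to Slc3a1 (r = 0.945), Cth (r = 0.937) and Rad50 (r = 0.934). None of the 24 was another of the 8 podocyte genes. Of the 24, 19 had ranges that did not overlap between the 5 kidneys low in Y-linked transcripts and the other 10. Over all probe sets 6.82% were higher in the 5 in this way and 4.69% lower. The 24 were chosen with that split in place, so their share follows in part from the choice and is not a separate result. Within the 10 kidneys alone, the same r ran from 0.345 to 0.947 with a median of 0.804. These 10 were part of the choice of the 24, so high values there were in part selected for. There, 1 of the 24 was again among the 3 genes most like its podocyte gene (Ten1 for Wt1). Each of the 8 podocyte genes was compared with the other 7, ranked among all other probe sets by this r. Over all kidneys, the median rank of the 7 ran from the top 0.94% for Wt1 to the top 2.51% for Synpo. Nphs1 stood at 1.61%, Ptpro at 2.26% and Cd2ap at 2.42%. Within the 10 kidneys the same medians ran from 8.63% for Wt1 to 53.9% for Cd2ap. There Ptpro stood at 9.38%, Nphs1 at 11.5% and Kirrel, next below Cd2ap, at 25.7%.

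A wider set of 63 measured genes of the filtration barrier, out of 68 listed, was read from the same fit, and 0 passed at an adjusted p under 0.05 in limma. At an unadjusted p under 0.05, 3 of 63 were higher and 0 lower in knockout kidneys, where 3.49% of all probe sets were higher and 2.06% lower. The median difference over the 63 was 0.03, against 0.01 over all probe sets. With the presence of Y-linked transcripts as a factor, 9 of 63 had an unadjusted p under 0.05 in limma, where 8.75% of all probe sets did. In that fit 0 of 63 passed the adjusted threshold.

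Among 13 partners of the slit diaphragm, 9 were higher and 4 lower in knockout kidneys without passing. The smallest p belonged to Crb2, a Crumbs polarity protein required for podocyte foot processes, at 0.11 (SE 0.06, adjusted p = 0.951 in limma), and the polarity scaffold gene Pard3, at -0.08 (SE 0.05, adjusted p = 0.973). Kirrel2, the neighbour of Nphs1 on chromosome 7 and a relative of Kirrel, differed by -0.02 (SE 0.07, adjusted p = 0.997 in limma). Of 14 cytoskeletal genes, Anln, an actin-binding protein of dividing cells, differed by 0.19 (SE 0.08, adjusted p = 0.826) and Ezr, which links podocalyxin to actin, by 0.10 (SE 0.05, adjusted p = 0.937). Crb2 (5.30 to 5.85) and Anln (4.87 to 5.48) were dim, around or below the array medians of 5.51 to 5.59.

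Among the barrier lists, that of the basement membrane had the most genes on one side. In it 13 of 16 were higher in knockout kidneys, with a median difference of 0.06, and none passed. Of all 23521 probe sets, 12831 were higher. The lean was also seen elsewhere, in 10 of 12 proximal tubule, 7 of 8 distal convoluted and connecting tubule, 6 of 7 medulla and 4 of 4 mesangium genes. It was weaker or absent in glomerular endothelium (6 of 10) and the thick ascending limb (3 of 7). Lama5, the laminin chain of the mature glomerular basement membrane, ranged from 8.08 to 8.31 in knockout kidneys (median 8.21) and from 7.86 to 8.23 in wild-type kidneys (median 8.01). It differed by 0.15 (SE 0.06, adjusted p = 0.818 in limma, exact permutation p = 0.0232). Col4a3, a collagen IV chain of the same membrane, differed by 0.13 (SE 0.06, adjusted p = 0.894 in limma, exact permutation p = 0.0340). Among 8 transcription factor genes Zhx2 differed by -0.14 (SE 0.08, adjusted p = 0.943) and Klf15 by -0.18 (SE 0.11, adjusted p = 0.973). The 12 surface and secreted genes held Bmp7 at 0.07 (SE 0.05, adjusted p = 0.973) and Vegfa, the endothelial growth factor that podocytes secrete, at 0.05 (SE 0.04, adjusted p = 0.980).

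The split of the kidneys ran through these genes as well. Of the 63, 18 were higher in each of the 5 kidneys low in Y-linked transcripts than in each of the other 10, and Zhx2 alone was lower in each of the 5, where 6.82% of all probe sets were higher in this way and 4.69% lower. By list these were 2 of 13 slit diaphragm partners (Tjp1 and Prkci), 4 of 14 cytoskeletal genes, 2 of 8 transcription factor genes (Tcf21 and Foxc2), 5 of 12 surface and secreted genes and 5 of 16 basement membrane genes. The largest difference among the 63 was that of Npnt, which encodes the basement membrane ligand nephronectin. It lay between 11.27 and 11.54 in the 5 kidneys and between 10.57 and 10.88 in the 10, a difference of 0.65. Npnt, Mme and several other genes of these lists are also expressed in tubules, so a reading does not stand for podocytes alone.

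**Figure D5:**
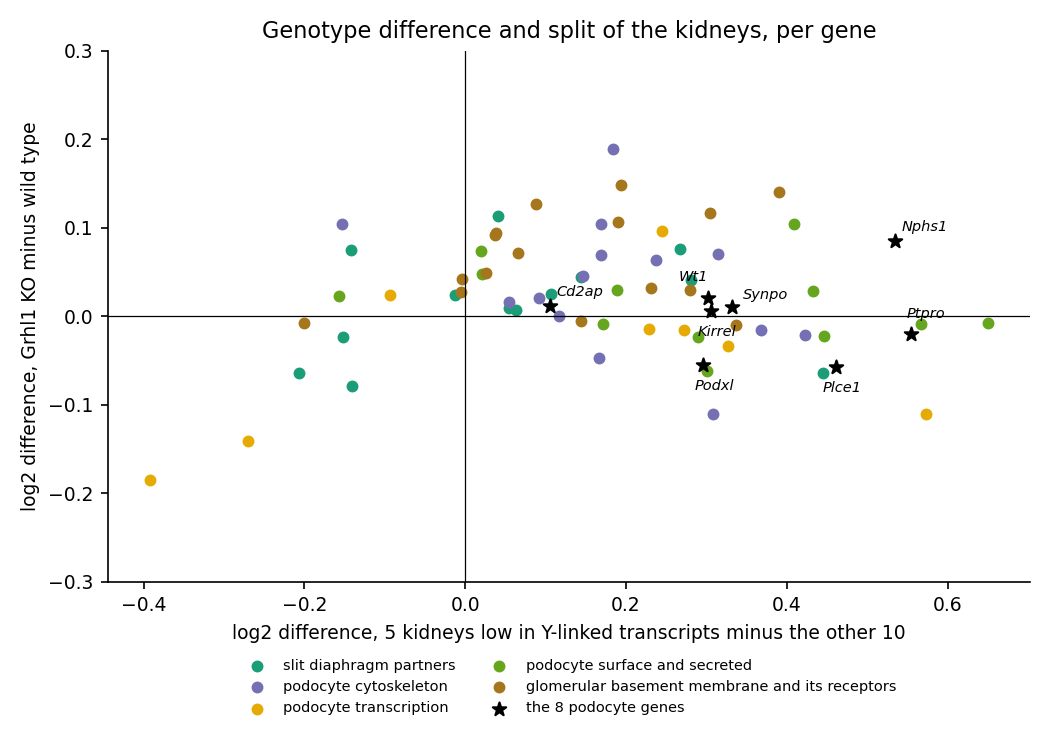
For each of the 8 podocyte genes (stars) and 63 other filtration barrier genes (coloured by list), the log2 difference between the 5 kidneys low in Y-linked transcripts and the other 10 (horizontal axis) against the log2 difference of 8 knockout minus 7 wild-type kidneys (vertical axis). The 8 stars run from 0.11 to 0.55 horizontally and stay between -0.06 and 0.08 vertically.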

How the data were processed

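Kidney RNA of 15 mice was hybridised to a 1-colour expression array after whole-transcript labelling of 500 ng, per the labels' protocols. Per the submitters' processing notes, the authors deposited log2 values summarised by robust multi-array average (RMA). RMA gives all arrays 1 distribution and compresses dim probe sets, so a general shift cannot be seen and small folds are understated. Array medians lay between 5.51 and 5.59. Scanner files were not used here. Precision depends on the number of arrays.

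Of 41345 probe sets, the 23521 with 1 gene symbol were tested, and symbols were updated by Entrez ID to RefSeq (GRCm38.p6) for 23328. For genes other than the 8, the probe set with the highest mean was taken. The genotype fit used R 4.3.3 with limma 3.58.1 (lmFit, eBayes, two-sided, Benjamini-Hochberg over all 23521). Single genes were also tested by exact permutation over all 6435 splits into 8 and 7, and correlations by 100000 random permutations, both two-sided. Y-linked transcripts were called present above the midpoint of the list's range, and liver or adrenal transcripts where a list mean exceeded the median by more than 1 log2 unit. The design text counts 8 and 7 mice, so each array was taken as 1 mouse. The fit was also tested on simulated data with known changes.

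The 8 genes, the lists and the tests were chosen with earlier results of these data known. Named besides the 8 are Grhl1, the 2 genes of smallest p in each barrier list and the 3 genes most like each of the 8. Kirrel2, Npnt and the genes listed by their split were chosen after their values were seen. Correlations among the 8 genes and with the lists were planned over all 15 kidneys. They are given within 10 in the Results because the kidneys formed separate clusters, and over all 15 at the end. The genes most like each of the 8 were found over all 15 kidneys.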

Additional observations from a re-analysis of the deposited data

Results flagged for a closer look

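Of 38 groups examined, 2 held a kidney far from the others of its genotype, where chance gives about 1 in 20. Cd2ap read 11.13 in wild-type replicate 6, against 10.97 in wild-type replicate 7, the next highest, and both are low in Y-linked transcripts. Crb2 read 5.30 in wild-type replicate 1, the lowest wild-type kidney.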

How the results depend on the processing

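In 30 alternatives, 29 of them limma fits and the other the exact rank-sum test, 0 of the 8 podocyte genes passed (smallest adjusted p = 0.504, in limma). The 63 other barrier genes gave 0 calls as well (smallest adjusted p = 0.220). The 8 genotype differences are small beside their errors, and the signs of 7 of them turned under some alternative. With the proximal tubule mean as a covariate, Nphs1 was -0.231, Wt1 -0.142, Synpo -0.178, Cd2ap -0.0556 and Kirrel -0.135, and with Y-linked presence as well, added after the data were seen, these were -0.102, -0.0554, -0.0897, -0.0338 and -0.0255. Within the 5 kidneys low in Y-linked transcripts, Nphs1 was -0.0248, Wt1 -0.121, Synpo -0.0978, Ptpro 0.0502, Cd2ap -0.0574 and Kirrel -0.018, and within the other 10 Kirrel was -0.0232. With a covariate for the mean of Y-linked genes, Wt1 was -3.01e-05, Synpo -0.013 and Kirrel -0.0155, and with Y-linked presence as a factor, added after the data were seen, these were -0.00595, -0.0196 and -0.0215. Quantile normalization gave -0.00359 for Synpo and -0.00287 for Kirrel. Without the kidneys with adrenal cortex transcripts, Synpo was -0.0405 and Cd2ap -0.0152. Without those with liver transcripts, Ptpro was 0.0402 and Plce1 0.0375, and with liver and adrenal cortex means as covariates they were 0.00597 and 0.00564. The mean of other podocyte genes as a covariate gave 0.00492 for Ptpro. The cause was not tested for any of these. With 1 kidney left out at a time, the lowest and highest values were -0.0224 and 0.0904 for Wt1 and -0.0252 and 0.0671 for Synpo (without wild-type replicates 1 and 6), and -0.0824 and 0.0537 for Ptpro and -0.0345 and 0.0546 for Kirrel (without knockout replicate 14 and wild-type replicate 6). They were -0.000832 and 0.043 for Cd2ap (without wild-type replicates 2 and 6) and -0.11 and 0.0147 for Plce1 (without wild-type replicates 1 and 7). Nphs1 and Podxl kept their signs when 1 kidney was left out, with values of 0.00566 to 0.179 for Nphs1 and -0.0901 to -0.000713 for Podxl, the first of each without knockout replicate 14 and the second without wild-type replicate 6.

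Over all 15 kidneys, which formed separate clusters, the median r of the 28 pairs was 0.8504, with 0.7804 for Spearman's rho. Within the 10 kidneys with Y-linked transcripts it was 0.3202, and 0.4471 with each genotype's mean subtracted, and 0.2467 without knockout replicate 10, both added after the data were seen. With 1 of all 15 kidneys left out, the median that was 0.8504 lay between 0.8141 and 0.8706. Of the 40 relations to lists, 39 passed over 15 kidneys, 37 to 40 with 1 left out, and 0 within the 10. No paired analysis was possible because the 2 genotypes share no replicate number. The signal of a probe set over background could not be read from these values.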
